A study of Homo sapiens with 4 samples.

Results

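Vaults are large barrel-shaped ribonucleoprotein particles of the cytoplasm. Their wall is built from the major vault protein MVP, and they also hold the poly(ADP-ribose) polymerase PARP4, the telomerase-associated protein TEP1 and short non-coding vault RNAs. RNA polymerase III transcribes the vault RNAs, and most of their molecules in a human cell are found outside the particle, where they bind other proteins. Here 7 genes of the particle were listed by symbol: the vault RNAs VTRNA1-1, VTRNA1-2, VTRNA1-3 and VTRNA2-1, and the proteins MVP, PARP4 and TEP1. Of these 7, the platform annotation named a probe set for 5, with 1 probe set each, among 14884 named genes. PARP4 and TEP1 had no named probe set and were not measured here. The list was drawn up because VTRNA1-3 was higher in the knockdown arrays, and the question was whether other vault RNAs or MVP shared that difference.

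The 4 arrays came from MDA-MB-231Br, a derivative of the human breast cancer line MDA-MB-231, which is the name used in the sample titles. In 2 samples the cells carried a lentiviral short hairpin RNA against YTHDF3 (shYTHDF3), and in 2 they carried a control hairpin (shControl). All 4 had been selected with puromycin, and YTHDF3 is known as a reader of N6-methyladenosine, a methyl mark on RNA. The labels say neither how many hairpin sequences were used nor whether a group's samples were separate cultures, so the spread behind each p-value may be only technical.

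Expression is given as the deposited log2 values, in which 1 unit is a doubling. No probe set was named YTHDF3, so the knockdown itself was not checked. The test covered the 12755 genes with a mean of at least 2.54 over the 4 arrays, a filter on low values set at the 30th percentile of the table. Their values correlated at 0.992 between the shYTHDF3 arrays and at 0.992 between the shControl arrays, against 0.986 to 0.987 between groups. As markers of the line, 4 of 5 tested mesenchymal and basal genes, VIM, CD44, AXL and MSN, lay above 8 on the log2 scale in all 4 arrays. FN1 lay lower, at 5.68 to 7.40, and the epithelial marker KRT18 also lay above 8 in all 4 arrays. Of 10 tested luminal and epithelial markers, the hormone receptor genes ESR1 and PGR lay at 2.57 to 2.94, below the array medians of 3.203 to 3.221. GATA3, FOXA1, EPCAM, KRT8, KRT18 and KRT19 lay above the medians in all 4 arrays, at 3.84 to 8.98, and ERBB3 and CLDN4 lay on both sides. Of 2 tested leukocyte and stromal markers PECAM1 lay below the array medians and CD68 at 10.4 to 10.7, and neither passed the test between groups.

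VTRNA1-3 was higher in the knockdown arrays and was the only measured member whose arrays did not overlap between the groups. Its log2 levels were 6.19 and 6.60 in the shYTHDF3 arrays, against 5.40 and 5.10 in the shControl arrays. Every shYTHDF3 array lay above both shControl arrays, by 0.79 at the least and 1.49 at the most. The means were 6.40 ± 0.29 in shYTHDF3 and 5.25 ± 0.21 in shControl (SD, n = 2 each), a log2 difference of 1.14 or 2.21-fold. The gap between replicates was 0.40 in shYTHDF3 and 0.30 in shControl. VTRNA1-3 was chosen by these same values, the difference between the 4 arrays, so they describe it and are no test. As background, limma, a linear model with a spread shared across genes, called 11 genes higher in shYTHDF3 at an adjusted p under 0.05. That is 0.0862% of the genes tested, while 0.666% were called lower and 0.753% in either direction. Over all genes, leaving out either shControl array left 0 called in either direction, and leaving out either shYTHDF3 array left 36 or 35, against 96 with all 4 arrays. In the arrays as measured, more RNA per cell and more cells that hold it cannot be told apart.

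VTRNA1-1, whose RNA binds the autophagy receptor p62, had the next largest difference, but its groups overlapped. Its log2 levels were 3.67 and 3.59 in the shYTHDF3 arrays, against 3.05 and 3.68 in the shControl arrays. The shYTHDF3 arrays lay close together, and shControl replicate 2 matched them while shControl replicate 1 lay below. The group means were 3.63 ± 0.06 in shYTHDF3 and 3.37 ± 0.44 in shControl (SD, n = 2 each). The log2 difference of 0.27 (SE 0.21) had a 95% interval of -0.22 to 0.75 and an adjusted p of 0.60 from limma. Without shControl replicate 1 it was -0.04. Without shControl replicate 2 it was 0.58. Either fit leaves 1 shControl array, so the direction rests on which one is kept.

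VTRNA1-2, which lies between the other two in its gene cluster, was at the lower end of the scale and did not pass the filter on low values. Its log2 levels were 2.18 and 2.66 in the shYTHDF3 arrays, against 2.35 and 2.58 in the shControl arrays. The lowest and the highest of the 4 values were both from shYTHDF3, so the groups overlapped completely. The difference of means was -0.05, smaller than the gap between replicates of 0.47 in shYTHDF3 and 0.23 in shControl. Weak signals are compressed towards a floor by the normalization named for these data, so a change at this level could be understated. The same limit applies to VTRNA2-1, whose mean of 3.09 over the 4 arrays lay below the array medians of 3.203 to 3.221. VTRNA1-1, at 3.50, lay little above them.

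VTRNA2-1, also called nc886 and once annotated as a microRNA precursor, binds and inhibits the kinase PKR. Its log2 levels were 2.91 and 3.47 in the shYTHDF3 arrays, against 3.32 and 2.66 in the shControl arrays. Each group held 1 higher and 1 lower array, and the ranges overlapped. The difference was 0.20 (SE 0.26), with a 95% interval of -0.41 to 0.81 and an adjusted p of 0.79 from limma. It was -0.08 without shYTHDF3 replicate 2 and -0.13 without shControl replicate 2.

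MVP encodes the protein that forms nearly the whole of the vault wall. Its log2 levels were 5.71 and 5.26 in the shYTHDF3 arrays, against 5.20 and 5.89 in the shControl arrays. The highest and the lowest array were both from shControl, with the shYTHDF3 arrays between them. The means were 5.48 ± 0.32 in shYTHDF3 and 5.54 ± 0.49 in shControl (SD, n = 2 each). The difference was -0.06 (SE 0.25), with a 95% interval of -0.64 to 0.52 and an adjusted p of 0.95 from limma. It was 0.17 without shYTHDF3 replicate 2 and 0.28 without shControl replicate 2. In RefSeq MVP overlaps PAGR1, whose own probe set differed by 0.22 with an adjusted p of 0.50 from limma.

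**Figure D1:**
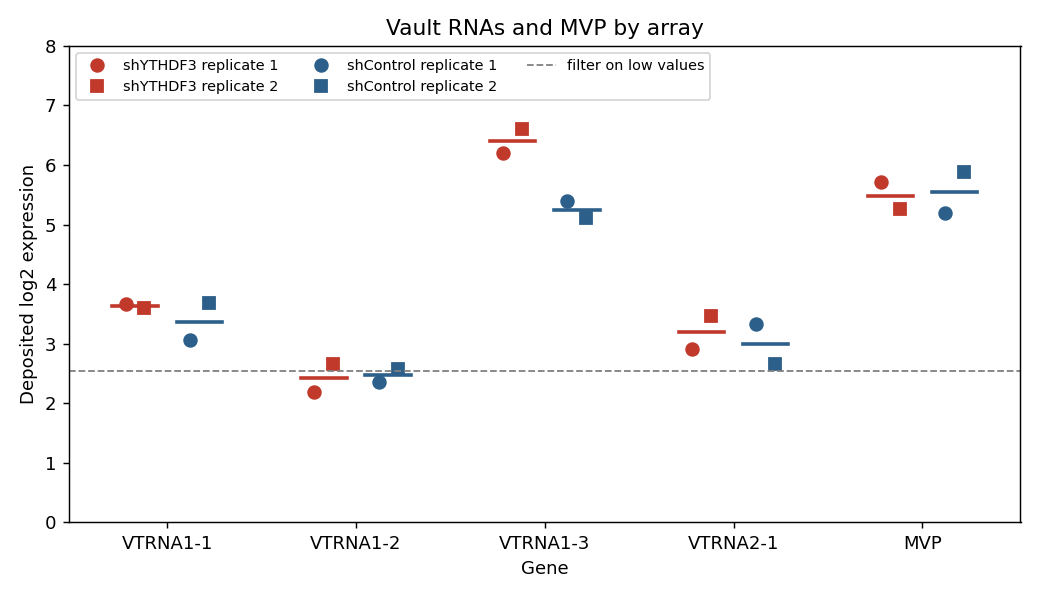
Deposited log2 expression (vertical axis) of the 5 measured genes in each array, with shYTHDF3 in red to the left of shControl in blue, circles for replicate 1, squares for replicate 2 and bars for group means. VTRNA1-3 is the only gene whose groups separate, at 6.19 and 6.60 in shYTHDF3 against 5.40 and 5.10 in shControl, and VTRNA1-2 lies around the dashed filter value of 2.54.

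Set side by side, the difference of VTRNA1-3 exceeded that of VTRNA1-1 by 0.88, of VTRNA2-1 by 0.95, of VTRNA1-2 by 1.19 and of MVP by 1.21 on the log2 scale. The upper bounds of the intervals of VTRNA1-1, VTRNA2-1 and MVP, at 0.75, 0.81 and 0.52, lay below the 1.14 of VTRNA1-3 in the fit of all 4 arrays. As folds these bounds are 1.68, 1.75 and 1.44 with all 4 arrays. VTRNA1-1 and VTRNA2-1 had means of 3.50 and 3.09, against 5.82 for VTRNA1-3, so their differences and bounds could be understated. With 1 array left out the bounds moved, and without shYTHDF3 replicate 2 that of VTRNA1-1 no longer lay below VTRNA1-3. Such a fit leaves 1 array in a group, so only its differences are given here. Without shControl replicate 1 VTRNA2-1 was at 0.53 beside 1.29 for VTRNA1-3, and without shYTHDF3 replicate 1 at 0.48 beside 1.35. VTRNA1-1 was at 0.31 beside 0.94 without shYTHDF3 replicate 2, and at 0.58 beside 0.996 without shControl replicate 2. In that last setting MVP was at 0.28, its highest. The gap between VTRNA1-3 and each of these genes was not tested, since VTRNA1-3 was picked for being high. Of the 3 tested members other than VTRNA1-3, limma called 0, and 0 had an unadjusted p under 0.05, which 14.7% of all tested genes had. All 3 overlapped between groups, where 45.5% of tested genes did not. Their median log2 difference was 0.20, beside 0.0040 over all tested genes. The smallest 2-sided p that an exact permutation test can give with 2 arrays per group is 0.333, so no single member could pass such a test at 0.05.

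**Figure D2:**
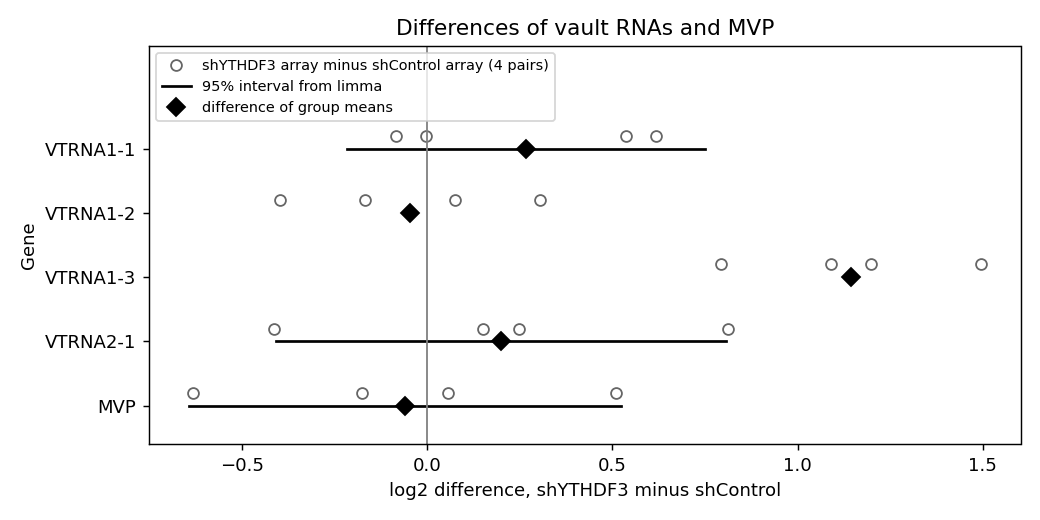
Log2 differences (horizontal axis, shYTHDF3 minus shControl) for the 5 measured genes, with diamonds for differences of means, open circles for the 4 pairs of arrays and lines for 95% intervals from limma in the tested genes other than VTRNA1-3. All 4 pairs of VTRNA1-3 lie between 0.79 and 1.49, while the pairs of every other gene fall on both sides of 0.

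With 1 array left out, the difference of VTRNA1-3 was 0.94 to 1.35. Its sign could not turn, since its groups do not overlap and it was chosen for that difference, so this adds nothing to the levels above. The other members, whose groups overlap, changed sign with 1 array or another left out. VTRNA1-1 ran from -0.04 to 0.58, VTRNA1-2 from -0.28 to 0.19, VTRNA2-1 from -0.13 to 0.53 and MVP from -0.40 to 0.28. These differences therefore had no settled direction in 2 arrays per group.

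**Figure D3:**
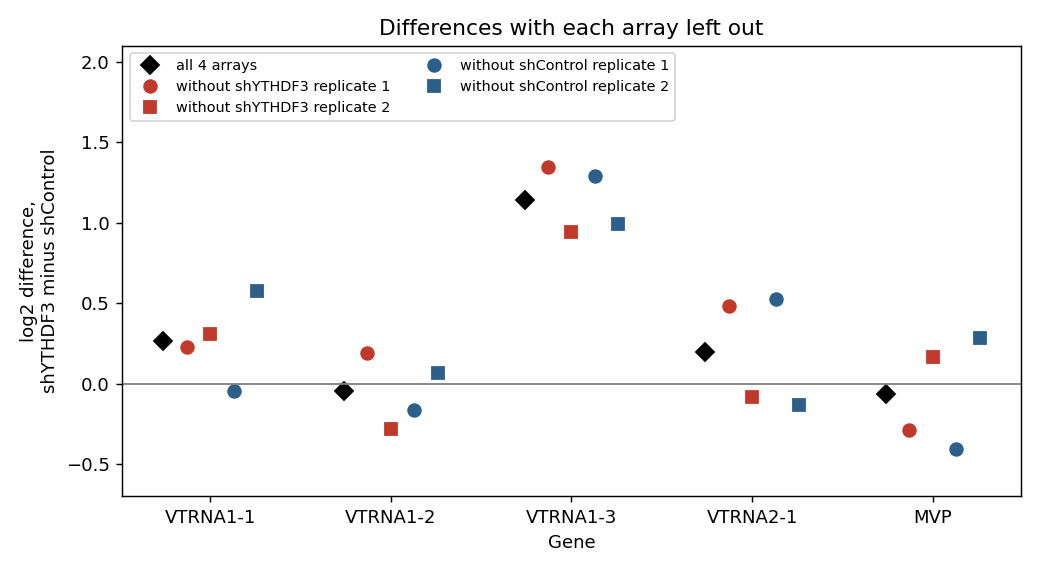
Log2 difference (vertical axis, shYTHDF3 minus shControl) of the 5 measured genes with all 4 arrays (black) and with each array left out (red for shYTHDF3, blue for shControl). VTRNA1-3, chosen for its difference over these arrays, lies between 0.94 and 1.35, and each of the other genes has values above and below 0.

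The vault RNAs differ in where they lie. In RefSeq (GRCh38.p14) VTRNA1-1, VTRNA1-2 and VTRNA1-3 follow each other on chromosome 5 and are 98, 88 and 88 bases long. ZMAT2 lies before them, and the protocadherin alpha genes come after them. VTRNA2-1, at 108 bases, stands apart on the same chromosome between TGFBI and SMAD5-AS1. The 3 clustered RNAs are related in sequence, so signal shared between their probe sets cannot be told apart. All 3 also overlap the span of the annotated non-coding gene LOC105378198, which had no named probe set. Strand and exons were not compared, so whether its transcripts add to the signal of the vault RNAs was not tested. No other row of the table held the same 4 values as any of the 5 measured genes. The label protocol describes cRNA made from total RNA, and how fully it captures RNAs this short was not tested.

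Of 31 listed genes around the VTRNA1 cluster, 7 were tested and limma called 0, with 3 higher and 0 lower at an unadjusted p under 0.05. Over all tested genes 796 of 12755 were higher and 1082 lower by that measure, 14.7% in all. PCDHB2, a protocadherin of the neighbouring beta cluster, had log2 levels of 5.20 and 5.28 in shYTHDF3, against 4.75 and 4.67 in shControl, which is 0.53 apart (limma, adjusted p = 0.14). HARS1, the cytosolic histidyl-tRNA synthetase, differed by 0.46 with an adjusted p of 0.30 from limma. WDR55, a WD-repeat protein, differed by 0.36 with an adjusted p of 0.31 from limma. SRA1, known as a steroid receptor RNA activator, differed by 0.22 and did not pass. The median of the 7 was 0.22, with 5 positive and 2 negative, and the lowest was -0.35. Near VTRNA2-1, the signal transducer SMAD5 and its antisense gene SMAD5-AS1 differed by -0.04 and -0.03, and neither passed.

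Genes whose products process or bind vault RNAs were compared as a list, and limma called 0 of the 10 tested among 14 listed. The median difference was 0.18, with 9 of 10 positive, beside 0.0040 over all tested genes, of which 50.8% were positive. In 6 of 10 both shYTHDF3 arrays lay above both shControl arrays, which 22.6% of tested genes did. At an unadjusted p under 0.05 there was 1 of 10, a smaller share than the 14.7% of all tested genes. It was SRSF2, a splicing factor reported to bind VTRNA1-1 in human cells. It had log2 levels of 9.56 and 9.75 in shYTHDF3, against 9.11 and 9.24 in shControl. The groups did not overlap, and the difference of 0.48 did not pass (limma, adjusted p = 0.18). ALYREF, an mRNA export factor that binds 5-methylcytosine, differed by 0.33, the pseudouridine synthase PUS7 by 0.26 and SQSTM1, which encodes p62, by 0.25. Their adjusted p-values from limma were 0.34, 0.47 and 0.45. EIF2AK2, which encodes PKR, differed by 0.21 (95% interval -0.15 to 0.57). SSB, the La protein that binds the uridine tail of RNA polymerase III transcripts, differed by -0.06 (95% interval -0.43 to 0.31). DUSP11, a phosphatase that trims the 5′ triphosphate of such RNAs, differed by 0.09 (95% interval -0.29 to 0.48).

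RNA polymerase III also makes other short RNAs, and limma called 0 of the 10 tested among 35 listed. The median difference was 0.48 with 9 of 10 positive, and 5 were higher and 0 lower at an unadjusted p under 0.05, beside 796 higher and 1082 lower of 12755 tested genes. In 8 of 10 both shYTHDF3 arrays lay above both shControl arrays, which 22.6% of tested genes did. Of the 10, 8 belong to snaR, a family of closely related small RNAs, so their probe sets cannot be counted as separate measurements. Signal shared between them was not tested. SNAR-H had log2 levels of 5.61 and 4.93 in shYTHDF3, against 3.94 and 4.28 in shControl, which is 1.16 apart (limma, adjusted p = 0.093). SNAR-B1, SNAR-D and SNAR-F differed by 0.78, 0.88 and 0.66, with adjusted p-values from limma of 0.068, 0.14 and 0.20. The 2 genes outside that family were the catalytic RNAs of RNase MRP and RNase P. RMRP had log2 levels of 12.07 and 12.17 in shYTHDF3, against 11.905 and 12.03 in shControl, and differed by 0.15. RPPH1 had 5.28 and 5.73 in shYTHDF3, against 5.77 and 5.87 in shControl, and differed by -0.32. Neither passed.

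The subunits and factors of RNA polymerase III showed no gene past the test. Of 30 listed genes 9 were tested, limma called 0, and 0 had an unadjusted p under 0.05. The median was 0.07, and differences ran from -0.24 for the subunit POLR3C to 0.23 for the subunit CRCP. The repressor MAF1 differed by 0.17 (95% interval -0.15 to 0.49). The subunit POLR3G, found in proliferating and stem cells, differed by 0.18 (95% interval -0.14 to 0.49).

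**Figure D4:**
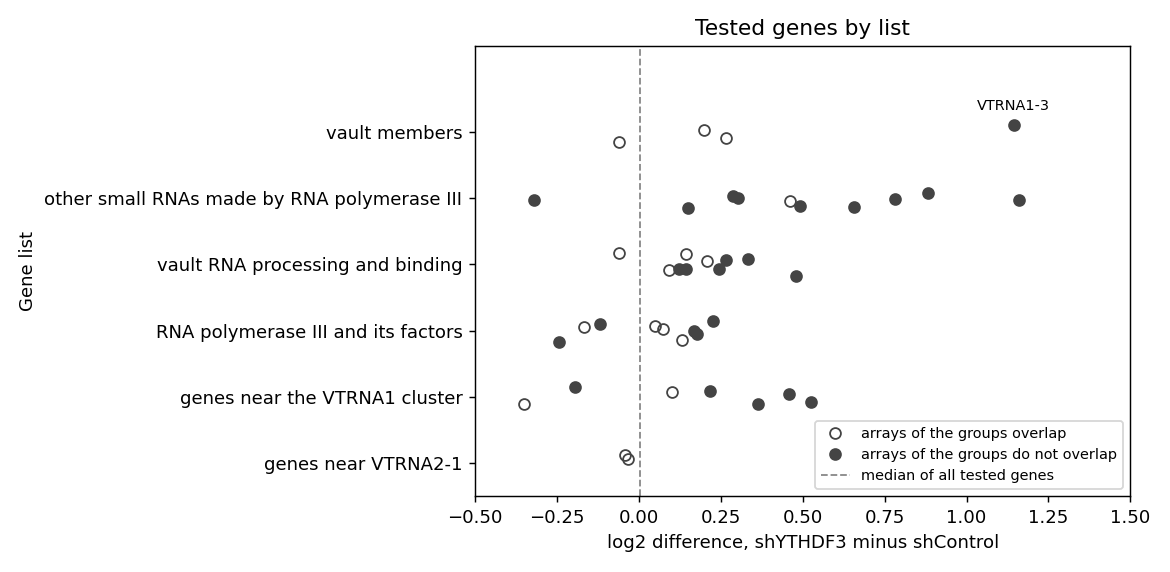
Log2 differences (horizontal axis, shYTHDF3 minus shControl) of the tested genes of 6 lists, filled where the arrays of the groups do not overlap and open where they do, with a dashed line at the median of all tested genes, 0.0040. VTRNA1-3 stands at 1.14 apart from the other vault genes, at -0.06 to 0.27, and the small RNAs made by RNA polymerase III run from -0.32 to 1.16.

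Outside the vault genes, the 5 tested genes whose profiles over the 4 arrays lay nearest to that of VTRNA1-3 were ANKRD36BP1, TPSAB1, TMEM19, ENG and CDC25A. Likeness was the Euclidean distance between profiles centred on their own means, and it ran from 0.20 for ANKRD36BP1 to 0.36 for CDC25A. Their differences ran from 0.81 for CDC25A to 1.33 for ANKRD36BP1, and lie near that of VTRNA1-3 because of this choice. None of the 5 is a short RNA of RNA polymerase III. Over all tested genes, 8 of 12755 had a larger difference than VTRNA1-3, and SNAR-H, a short RNA of RNA polymerase III, was among them at 1.16. VTRNA1-3 was chosen for its difference in these arrays, so its rank describes it and is no test.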

How the data were processed

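The deposited values were on a log2 scale, with a column for each of the 4 arrays. Per the submitters' processing notes they came from RMA, a method that subtracts background, makes arrays comparable and joins the probes of a set. Its settings are not given in the sources used. Each sample's group and number came from its title. The platform annotation gave 16098 of 53617 probe sets a single symbol, while 37519 had none here and 0 had more than 1. RefSeq matched each of the 16098 by Entrez identifier and changed 0 symbols. For genes with several probe sets the brightest on average was used. The test was limma's lmFit with eBayes (version 3.58.1, R 4.3.3), 2-sided and without covariates. P-values were adjusted over 12755 genes by Benjamini-Hochberg, and the fit was tested on simulated data. It had 2 residual and 5.30 prior degrees of freedom. The labels give the replicate numbers no meaning beyond a name, so no block was used. The number of arrays limits the precision. Members and lists were chosen with earlier results of these data known. Named were all members and the 5 genes most like VTRNA1-3. From each other list came the genes past the threshold or, without any, up to 4 of smallest p. SSB, DUSP11, EIF2AK2, RMRP, RPPH1, TERT, ADPRS and PAGR1 stand outside that rule and were chosen after their values were seen. The same holds for the cell line markers other than FN1, KRT18, CLDN4, KRT19, FOXA1, CD68 and PECAM1. Of 7 listed drug efflux transporters 0 had a named probe set.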

Additional observations from a re-analysis of the deposited data

How the results depend on the processing

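Over 14 alternatives the count of vault members called, VTRNA1-3 left aside, was 0 each time with limma, with 1 at an unadjusted p under 0.05 in 1 of them, VTRNA1-1 without shControl replicate 2. The difference of VTRNA1-3 ran from 0.94 to 1.35 over them, and from 1.14 to 1.18 over those that kept all 4 arrays. With all 4 arrays kept, VTRNA1-1 ran from 0.27 to 0.30, VTRNA2-1 from 0.19 to 0.23, MVP from -0.06 to -0.03 and VTRNA1-2 from -0.05 to -0.01. With 1 array left out, the ranges were -0.04 to 0.58 for VTRNA1-1 (-0.044 without shControl replicate 1), -0.13 to 0.53 for VTRNA2-1 and -0.40 to 0.28 for MVP, so each changed sign. VTRNA2-1 gave no value with the filter at the 50th percentile. The count of all genes called, 96, was 167 with that filter, 17 over all probe sets without a filter, 375 where the spread could follow the mean level and 0 to 36 with 1 array left out. With the replicate number as a block it was 11, and the block changed no call among the vault members other than VTRNA1-3. Deviations of same-numbered arrays correlated at 0.04 over the tested genes. With 2 arrays per group this cannot tell whether same-numbered samples share a culture, day or batch. The cause of these shifts was not tested.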

Other observations

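PARP4 and TEP1 were not measured, but other genes of their pathways were. The list around PARP4 had 5 tested genes: the polymerase family members PARP1, PARP2 and TIPARP, and the hydrolases PARG and ADPRS. Limma called 0 of these 5. PARG, which removes poly(ADP-ribose), had log2 levels of 8.39 and 8.30 in shYTHDF3, against 7.94 and 7.88 in shControl. It differed by 0.44 (limma, adjusted p = 0.19). PARP1, the DNA damage polymerase, had 8.79 and 8.69 in shYTHDF3, against 8.39 and 8.43 in shControl, which is 0.33 apart (limma, adjusted p = 0.30). PARP2, TIPARP and ADPRS differed by -0.12, -0.05 and -0.03. PARG and PARP1 had an unadjusted p under 0.05, as did 14.7% of all tested genes.

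In the telomerase particle, with which TEP1 also associates, limma called 0 of 8 tested genes and 0 had an unadjusted p under 0.05. The median was -0.01, with 4 positive and 4 negative. The RNA template TERC differed by -0.26, NHP2 by 0.18 and the catalytic subunit TERT by -0.07. Of 5 tested genes reported as MVP partners limma called 0, with 0 at an unadjusted p under 0.05 and differences from -0.19 for the kinase SRC to 0.12 for the repair gene XRCC2.

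Among markers of the line, FN1, fibronectin, was the 1 of 5 tested mesenchymal and basal markers past the test, at 6.09 and 5.68 in shYTHDF3, against 7.37 and 7.40 in shControl. The log2 difference was -1.499 (limma, adjusted p = 0.012). Of 10 tested luminal and epithelial markers limma called 0, and KRT18, a simple epithelial keratin, differed by 0.50 (limma, adjusted p = 0.22).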
